A study of Mus musculus with 24 samples.

Results

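The response to MyoD adenovirus was followed in clone 1, a LncMyoD knockout line of C3H 10T1/2 cells, which are mouse embryo fibroblasts. Its libraries were chosen by their labels, 8 of the 24 in the series. In 4 of them the cells had received MyoD adenovirus, 2 without and 2 with LncMyoD plasmid, and in the other 4 they had received no virus, 2 untreated and 2 with LncMyoD plasmid. All 8 carry the knockout and come from 1 clone, so the values describe that clone. The labels name no empty virus and no empty plasmid, so MyoD and infection cannot be told apart. Responses were also set against the 8 libraries of wild type cells and the 8 of knockout clone 2, which had the same 4 treatments. Cells were grown in medium with 10% FBS. Per the labels it was changed to 2% HS after transdifferentiation had been induced by MyoD, and they do not say whether cells without virus were changed too, so serum and virus cannot be told apart. The labels do not state separate cultures for the replicates, and every p-value therefore speaks only of the spread among these libraries.

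MyoD is a basic helix-loop-helix transcription factor that binds E-boxes, short DNA motifs of the form CANNTG, and can turn fibroblasts into skeletal muscle. It is known to switch on myogenin (Myog), which together with MEF2 factors drives the genes of the contractile apparatus, of cell fusion and of the neuromuscular junction. Igf2, an insulin-like growth factor, and H19, a long noncoding RNA, are neighbours in an imprinted domain and are known to be high in differentiating muscle. LncMyoD is a long noncoding RNA encoded near Myod1. The comparison addresses what MyoD changes in cells whose LncMyoD gene was knocked out.

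Relative to clone 1 cells without virus, the virus libraries held high Myod1, and Igf2 and H19 were called higher with each of 3 ways of summing transcripts per gene. Carbonic anhydrase 3 (Car3) was called higher and lipocalin 2 (Lcn2) lower with 1 of the 3. Much of the muscle program was listed at 0 or near it: Ckm, Mymx, Cdh15 and Myf6 were at 0 in all 8 libraries, and by length Myog was above 0 in 2 of the 4 virus libraries. By length Ttn, Actc1, Acta1, Myl1, Tnnt3 and Myom2, genes of the contractile apparatus, had low values in all 4 virus libraries and lower ones or 0 in the others.

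Promoters are shown for Igf2, a called gene, and for the 2 muscle actins Actc1 and Acta1, whose virus libraries lay above the other 4 by length, because the delivered factor binds E-boxes. These genes were chosen after their values were seen. Each sequence is a RefSeq promoter window of GRCm38.p6, 250 bases before to 50 bases after a RefSeq start, 5′ to 3′ along the gene, with CANNTG in capitals. All 3 lie on the minus strand, at chr7:142657447-142657746 for Igf2, chr2:114052826-114053125 for Actc1 and chr8:123894726-123895025 for Acta1. Each holds the start of the reference transcript with the most TPM in the clone 1 virus libraries. Ttn, Tpm2 and Myl1 are not shown, since their highest reference transcript started outside the window.
Igf2: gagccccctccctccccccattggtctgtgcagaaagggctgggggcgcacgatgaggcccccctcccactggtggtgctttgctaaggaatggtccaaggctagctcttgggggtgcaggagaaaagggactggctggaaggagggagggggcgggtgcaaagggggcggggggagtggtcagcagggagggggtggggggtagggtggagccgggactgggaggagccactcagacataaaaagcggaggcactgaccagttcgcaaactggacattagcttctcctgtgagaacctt
Actc1: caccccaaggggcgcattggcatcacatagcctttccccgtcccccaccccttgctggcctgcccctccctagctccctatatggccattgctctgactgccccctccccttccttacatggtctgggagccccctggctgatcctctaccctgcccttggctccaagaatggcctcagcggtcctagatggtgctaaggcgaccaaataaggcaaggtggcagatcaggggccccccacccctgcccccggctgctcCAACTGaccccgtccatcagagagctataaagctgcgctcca
Acta1: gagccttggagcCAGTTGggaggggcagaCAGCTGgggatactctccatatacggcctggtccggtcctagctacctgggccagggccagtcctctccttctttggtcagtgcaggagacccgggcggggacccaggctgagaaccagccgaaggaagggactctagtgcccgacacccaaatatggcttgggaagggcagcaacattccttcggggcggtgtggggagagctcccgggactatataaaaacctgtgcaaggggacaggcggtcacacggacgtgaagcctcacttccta
The Igf2 window, 1 of 4 for that gene, held 0 matches to CANNTG, the Actc1 window 1 and the Acta1 window 2. In Acta1 1 of the matches was CAGCTG, which is also a CANNTG. Both motifs were counted on either strand. Of all 32851 promoter windows of this length, 72.3% held CANNTG and 16.3% held CAGCTG. A match is a description of letters, not a shown binding site.

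Library makeup varied within clone 1. Aligned bases per library, from the deposited coverage, came to 2.43 to 4.63 gigabases with virus and 3.06 to 5.10 without, and how many reads stand behind a single value is not given. Transcripts at the ribosomal repeat copy on chromosome 17 took 36.8%, 63.1%, 64.6% and 59.2% of TPM with virus, against 70.0%, 66.4%, 63.0% and 64.6% without. MyoD virus replicate 1, the library at 36.8%, stood apart, and results are given without it where they change. The mitochondrial share was 1.74% ± 0.309 with virus and 1.42% ± 0.0834 without (SD, n = 4 each), with a two-sided exact permutation p of 0.0556, the smallest that 36 arrangements within plasmid arms allow, and 0.222 after Benjamini-Hochberg adjustment over 4 library measures. For the ribosomal share the exact permutation p was 0.111. Without MyoD virus replicate 1 the difference, virus minus none, was −3.5 percentage points in place of −10.1 for the ribosomal share and 0.184 in place of 0.326 for the mitochondrial share. In bulk RNA, fewer responding cells and less RNA per responding cell cannot be told apart.

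Values below are TPM, a transcript abundance corrected for length that sums to the same total in every library, after scaling the libraries to each other. Lists of 8 values run MyoD virus replicates 1 and 2, MyoD virus with plasmid 1 and 2, then untreated 1 and 2 and plasmid alone 1 and 2. Annotated TPM sums the transcripts that carry a reference gene. Extended TPM adds unnamed transcripts that share at least 50% of their exonic length with a gene. Length-weighted TPM, added after the data were seen, weights those same transcripts by length and divides by the gene's merged exonic length, so that a gene assembled in many pieces is not counted several times. Calls were made by limma on log2(TPM + 1) with plasmid as a block, at an adjusted p under 0.05 with a change of 1 or more on the log2 scale in either direction.

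Of 4289 genes tested with annotated TPM, 4 were called (0.0933%): Myod1, Igf2 and H19 were higher (0.0699%) and Ube3b was lower (0.0233%). The median log2 change over all genes tested was −0.10, and 291 genes had an unadjusted p under 0.05. With extended TPM 6 of 8584 genes were called (0.0699%), all higher: Myod1, Igf2, H19, Ttn, Myom2 and Numa1. With length-weighted TPM 6 of 5161 were called (0.116%). Myod1, Igf2, H19, Car3 and the microRNA gene Gm27672 were higher (0.0969%), and Lcn2 was lower (0.0194%). Without 1 library at a time, length-weighted TPM gave 3 and 2 calls without MyoD virus replicate 1 or 2, 9 without MyoD virus with plasmid replicate 1, 3 without untreated replicate 2 and 4 without each of the other 4. In simulated data with the spread of these libraries, 14% of genes changed by a log2 of 1, 66% of those changed by 2 and 84% of those changed by 3 were called. There 50 genes were changed at each size, more than the 4 called here, which eases the adjusted threshold. Simulated falls also had no lower bound, whereas TPM cannot be negative. The shares may therefore be too high for this comparison. They cover only genes that passed the filter with annotated TPM, and Myog, Actc1 and Acta1 did not.

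**Figure D1:**
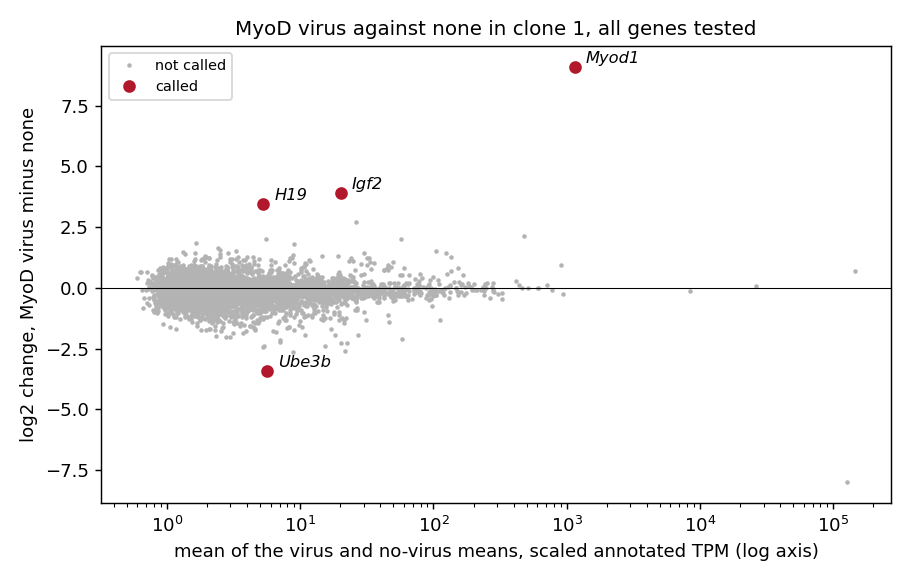
Each point is 1 of the 4289 genes tested with annotated TPM, with its mean level on a log x axis and its log2 change, MyoD virus minus no virus, on the y axis; called genes are labelled. Myod1 at 9.11, Igf2 at 3.92 and H19 at 3.46 lie above the other genes, and Ube3b lies at −3.41. The lowest point, not called, is the noncoding RNA AY036118 at −8.01 with an SE of 3.70.

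Myod1, the gene the virus delivers, sits at chr7:46376474-46379099 on the plus strand (mm10). Its annotated level was 1559, 2245, 2505 and 2895 TPM with virus, against 2.78, 3.61, 3.35 and 2.64 without. Every virus library was far above every other, and the levels without virus lay close together. The log2 change was 9.11 ± 0.19 (SE, limma adjusted p = 9.05e-08). These values do not separate viral from endogenous Myod1 RNA.

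Near Myod1, where LncMyoD lies, the files hold an unnamed minus-strand transcript at chr7:46345772-46351188 in each of the 4 clone 1 libraries that received the plasmid. As deposited it had 16.8 and 53.3 TPM with virus and plasmid, and 41.6 and 36.4 TPM with plasmid alone. It was not listed in the 4 clone 1 libraries without plasmid, where MyoD virus replicate 1 had a different fragment at 0.692 TPM. Wild type libraries without plasmid did not list it either, so it does not check the knockout.

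**Figure D2:**
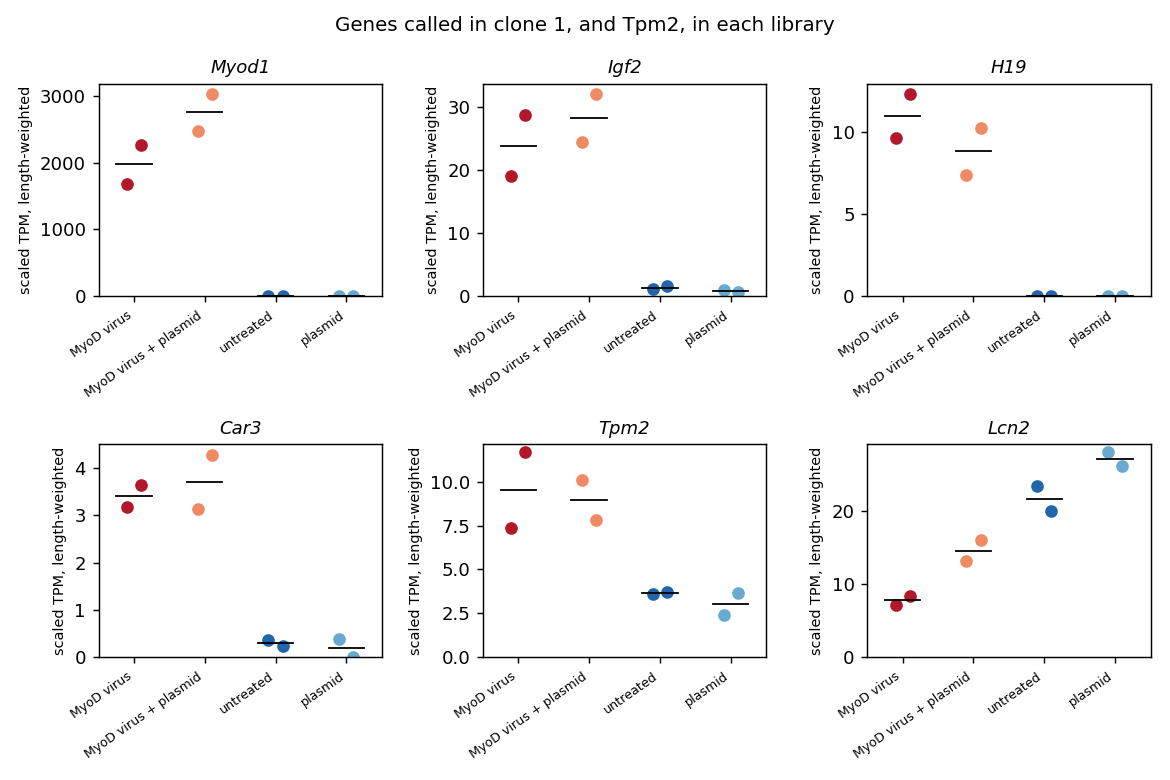
Length-weighted TPM, scaled, of Myod1, Igf2, H19, Car3, Tpm2 and Lcn2 in each of the 8 clone 1 libraries; points are libraries, black lines are group means, and virus groups stand left of the groups without virus. The virus libraries of Lcn2 all lie below the others, and those of the other 5 genes all lie above.

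Igf2, a secreted growth factor at chr7:142650766-142666816 on the minus strand, had an annotated level of 27.7, 43.8, 34.5 and 48.5 TPM with virus, against 1.08, 2.53, 1.698 and 1.16 without. All 4 virus libraries lay above all others, with and without plasmid. The log2 change was 3.92 ± 0.27 (SE, limma adjusted p = 0.000752), and 4.09 without MyoD virus replicate 1. Its length-weighted level averaged 26.03 ± 5.63 TPM with virus and 1.15 ± 0.343 TPM without (SD, n = 4 each). Between 96.3% and 97.9% of annotated Igf2 TPM in the virus libraries belonged to the transcript at chr7:142650766-142657496, whose start lies in the window printed above.

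H19, at chr7:142575529-142578143 on the minus strand, had an annotated level of 9.67, 13.6, 8.15 and 10.7 TPM with virus, against 0, 0, 0.145 and 0 without. It was present in each virus library and listed at 0 in 3 of the other 4. The fitted log2 change was 3.46 ± 0.28 (SE, limma adjusted p = 0.00175) and depends on the pseudocount. The filter asked for at least 1 TPM in at least 4 libraries, and H19 passed it through its virus libraries alone, so that it could not be tested when any of these was left out. Of the 26 imprinted genes listed, 8 were tested with annotated TPM and Igf2 and H19 were called, beside 0.0933% of all genes tested. The list was written with earlier results of these data known, so the count says nothing about imprinted genes as a group. Among 15 receptors and binding proteins of insulin-like growth factors, 6 were tested and 0 called.

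Car3, a carbonic anhydrase of muscle and fat at chr3:14863512-14872523, had a length-weighted level of 3.19, 3.64, 3.13 and 4.29 TPM with virus, against 0.353, 0.233, 0.387 and 0 without. The groups did not overlap, and the log2 change was 1.88 ± 0.22 (SE, limma adjusted p = 0.00995). Its annotated level was 5.13, 6.18, 0.515 and 7.14 TPM with virus, against 0.0307, 0.0358, 0.685 and 0 without. There the groups overlapped and the gene was not tested, and by length it passed the filter through its virus libraries alone. Gm27672 had a length-weighted level of 5.62, 3.54, 2.03 and 1.95 TPM with virus, against 0.199, 0, 0.2596 and 0 without, passed the filter in the same way, and changed by 1.87 ± 0.27 (SE, limma adjusted p = 0.0439). With annotated TPM its groups did not overlap either, and it was not called (limma adjusted p = 0.122).

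Lcn2, a secreted iron-binding protein of inflammation at chr2:32384633-32388252, had a length-weighted level of 7.18, 8.33, 13.1 and 16.03 TPM with virus, against 23.4, 19.97, 28.03 and 26.1 without. All 4 virus libraries were lower, and those without plasmid were the lowest. The log2 change was −1.11 ± 0.15 (SE, limma adjusted p = 0.0364). In 6 of the 8 fits that left out 1 library, 0 genes were called lower by length, so that the Lcn2 call was lost. With annotated TPM the change was −1.10 and missed the threshold (limma adjusted p = 0.122). Il1rn, the interleukin 1 receptor antagonist, had a length-weighted level of 4.65, 5.33, 6.95 and 7.01 TPM with virus, against 9.13, 9.65, 12.6 and 10.5 without. It did not overlap between groups and was not called (limma adjusted p = 0.197). Lcn2 was the 1 call among 13 genes tested by length in the inflammation list, beside 0.0194% of all genes tested that were called lower. With annotated and with extended TPM that list held 0 calls. The list was written with earlier results of these data known, so the count says nothing about inflammation genes as a group. Of the 24 genes of that list with a value by length, the virus libraries lay below the others for 2, Lcn2 and Cxcl12, and above for 0. The share of all genes lying below was 0.918%, and Cxcl12 was not called.

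Muscle genes were taken from 5 lists with 148 genes. With annotated TPM 74 had a value in any library, 25 were tested and 1, Myod1, was called. By length 110 had a value, 31 were tested and Myod1 was again the 1 called. All 4 virus libraries lay above the others for 4 of the 74 with annotated TPM, beside 1.04% of all genes with a value. By extended TPM this held for 13 of 110, beside 1.05%, and by length for 12 of 110, beside 1.16%. Each of these counts includes Myod1, the gene the virus delivers. The lists were written with earlier results of these data known, so the counts say nothing about muscle genes as a group. The virus libraries lay below the others for 0 muscle genes by any of the 3 values, beside 0.81%, 0.93% and 0.918% of all genes. The median log2 change of muscle genes with a value was 0.06 by annotated and by length-weighted TPM, against 0.013 over all genes, and 0.17 by extended TPM, against 0.012.

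Myogenic regulators were mostly at or near 0. Myog had a length-weighted level of 0, 2.62, 0 and 0.574 TPM with virus, against 0 in all 4 without. Mymk, a membrane protein needed for fusion, had 1.29, 0.3097, 1.02 and 0 TPM with virus, against 0 in all 4 without. Myf5, a determination factor related to MyoD, had 6.29, 1.65, 0 and 0 TPM with virus, against 2.79, 0.715, 0 and 0 without. These 3 genes were listed in some libraries and missing from others of the same group. Mef2d, a MEF2 factor, had 3.03, 3.34, 2.08 and 3.21 TPM with virus, against 2.25, 2.45, 2.77 and 1.86 without, and its groups overlapped. Smyd1, a muscle methyltransferase, was at 0 in all 8 libraries with annotated TPM and had a length-weighted level of 0, 0.271, 1.53 and 1.24 TPM with virus, against 0, 0, 0 and 0.0365 without. Rbm24, a splicing regulator of muscle, had 0.125, 0.6399, 0.257 and 0.0994 TPM with virus, against 0 in all 4 without. Its virus libraries all had a value and the others had none.

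The contractile list held 54 genes, 39 of them with a length-weighted value. The virus libraries lay above the others for 7, beside 1.16% of all genes with a value: Acta1, Actc1, Myl1, Tnnt3, Tpm2, Ttn and Myom2. Of these 7, Tpm2 alone passed the filter, and it was not called. Tpm2, a tropomyosin that fibroblasts also express, at chr4:43514711-43523765, had a length-weighted level of 7.37, 11.7, 10.1 and 7.81 TPM with virus, against 3.58, 3.72, 2.42 and 3.65 without. The groups did not overlap, and the log2 change was 1.23 ± 0.19 (SE, limma adjusted p = 0.065). Actc1, the cardiac actin that early skeletal muscle uses, had 0.285, 0.747, 1.101 and 1.14 TPM with virus, against 0 in all 4 without. Acta1, the skeletal actin, had 0.403, 2.26, 1.12 and 0.767 TPM with virus, against 0 in all 4 without. Myl1, a myosin light chain, had 0.709, 0.591, 1.12 and 0.841 TPM with virus, against 0 in all 4 without. These 3 genes had a value in every virus library and in no other. With annotated TPM Actc1 and Acta1 had a value in 1 virus library each and Myl1 in 3.

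Ttn, titin, the giant protein of the sarcomere at chr2:76703980-76982547, had an extended level of 30.6, 39.04, 17.2 and 25.7 TPM with virus, against 4.17, 0, 1.94 and 1.65 without. Its log2 change was 3.47 ± 0.45 (SE, limma adjusted p = 0.0218). Those sums came from 20, 23, 14 and 14 unnamed pieces with virus, against 3, 0, 1 and 1 without. By length Ttn had 0.5101, 0.551, 0.255 and 0.311 TPM with virus, against 0.0407, 0, 0.0232 and 0.0139 without. The groups did not overlap by either sum, and the level per length was low throughout. Myom2, an M-band protein, was also called with extended TPM, at a log2 change of 2.71 ± 0.36 (SE, limma adjusted p = 0.0218). It was at 0 in all 4 libraries without virus and passed the filter through its virus libraries alone. Its length-weighted level was 0.522, 1.36, 0.763 and 0.872 TPM with virus, against 0 in all 4 without. Extended TPM gave 2 calls in place of 6 without any 1 of the 4 virus libraries, and 3 to 5 without any 1 of the others.

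The neuromuscular junction and energy lists also held low values. Chrnb1 and Chrng, subunits of the acetylcholine receptor at the neuromuscular junction, did not overlap between groups. Chrnb1 had a length-weighted level of 2.27, 1.83, 1.47 and 1.76 TPM with virus, against 0.0242, 0.0661, 0.232 and 1.35 without and was not called (limma adjusted p = 0.471). Chrng had 0.222, 0.375, 0.02596 and 0.357 TPM with virus, against 0 in all 4 without. In the muscle energy list Nmrk2, a muscle nicotinamide riboside kinase, had 0.643, 2.15, 1.55 and 1.44 TPM with virus, against 0, 0.105, 0 and 0 without. It was listed at 0 in all 8 libraries with annotated TPM. Among 21 fusion genes 11 were tested by length and 0 called, beside 0.116% of all genes tested. Cck, the peptide cholecystokinin, was followed outside these lists and had 0.334, 2.03, 1.43 and 1.78 TPM with virus, against 0 in all 4 without. It had a value in each virus library and in no other, and it did not pass the filter.

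**Figure D3:**
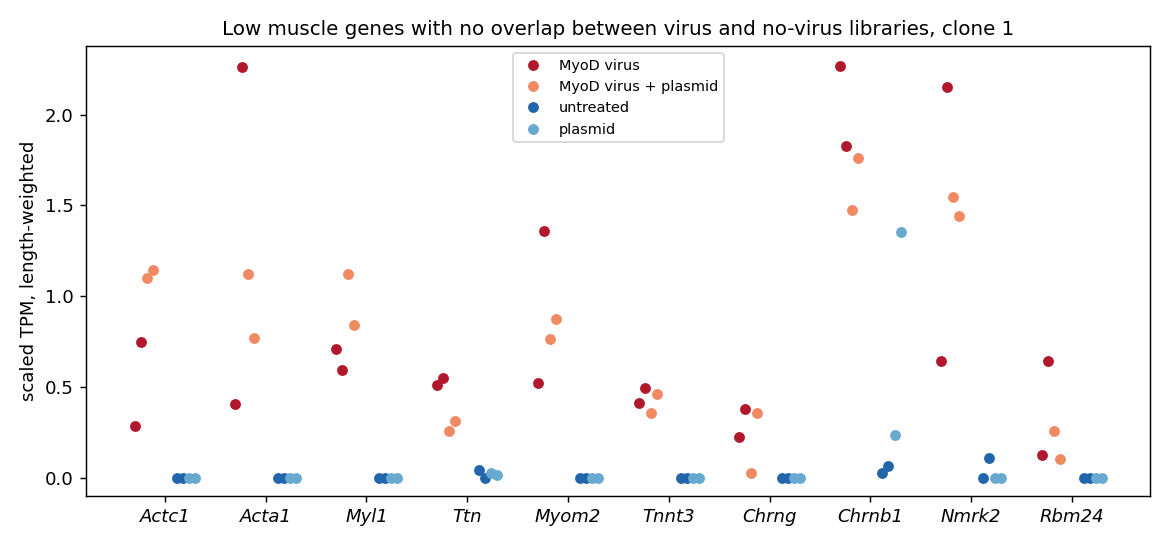
Length-weighted TPM, scaled, of Actc1, Acta1, Myl1, Ttn, Myom2, Tnnt3, Chrng, Chrnb1, Nmrk2 and Rbm24; points are clone 1 libraries, and virus groups stand left of the groups without virus. The highest virus point is Chrnb1 at 2.27, and the points without virus lie at or near 0 except 1 Chrnb1 library at 1.35.

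Ube3b and Numa1 turned on which transcripts were counted. Ube3b, a ubiquitin ligase at chr5:114380607-114421169, had an annotated level of 0.2003, 0, 0 and 0 TPM with virus, against 11.3, 11.3, 17.7 and 4.44 without, a log2 change of −3.41 ± 0.40 (SE, limma adjusted p = 0.0244). It passed the filter through the libraries without virus alone, and without any 1 of the 4 virus libraries it was tested and not called. Without any 1 of the other 4 it could not be tested. By length it had 20.01, 15.02, 14.8 and 8.76 TPM with virus, against 11.6, 12.5, 17.5 and 21.5 without, with overlap and a log2 change of −0.11. Numa1, a spindle protein, was called higher with extended TPM, at 59.4, 58.4, 62.1 and 57.5 TPM with virus, against 16.5, 16.01, 29.9 and 13.03 without. Its annotated level went the other way, at 0.0345, 1.27, 0.241 and 0.0643 TPM with virus, against 3.98, 4.54, 4.52 and 4.15 without. By length Numa1 had 11.3, 9.57, 10.5 and 7.5 TPM with virus, against 11.4, 12.1, 11.6 and 8.51 without, and the groups overlapped. Postn, the matrix protein periostin, had an annotated level of 831, 35.1, 718 and 846 TPM with virus, against 32.05, 1274, 36.6 and 30.8 without, with wide scatter inside groups. By length it had 327, 428, 515 and 412 TPM with virus, against 391, 539, 446 and 443 without and the scatter was narrower.

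**Figure D4:**
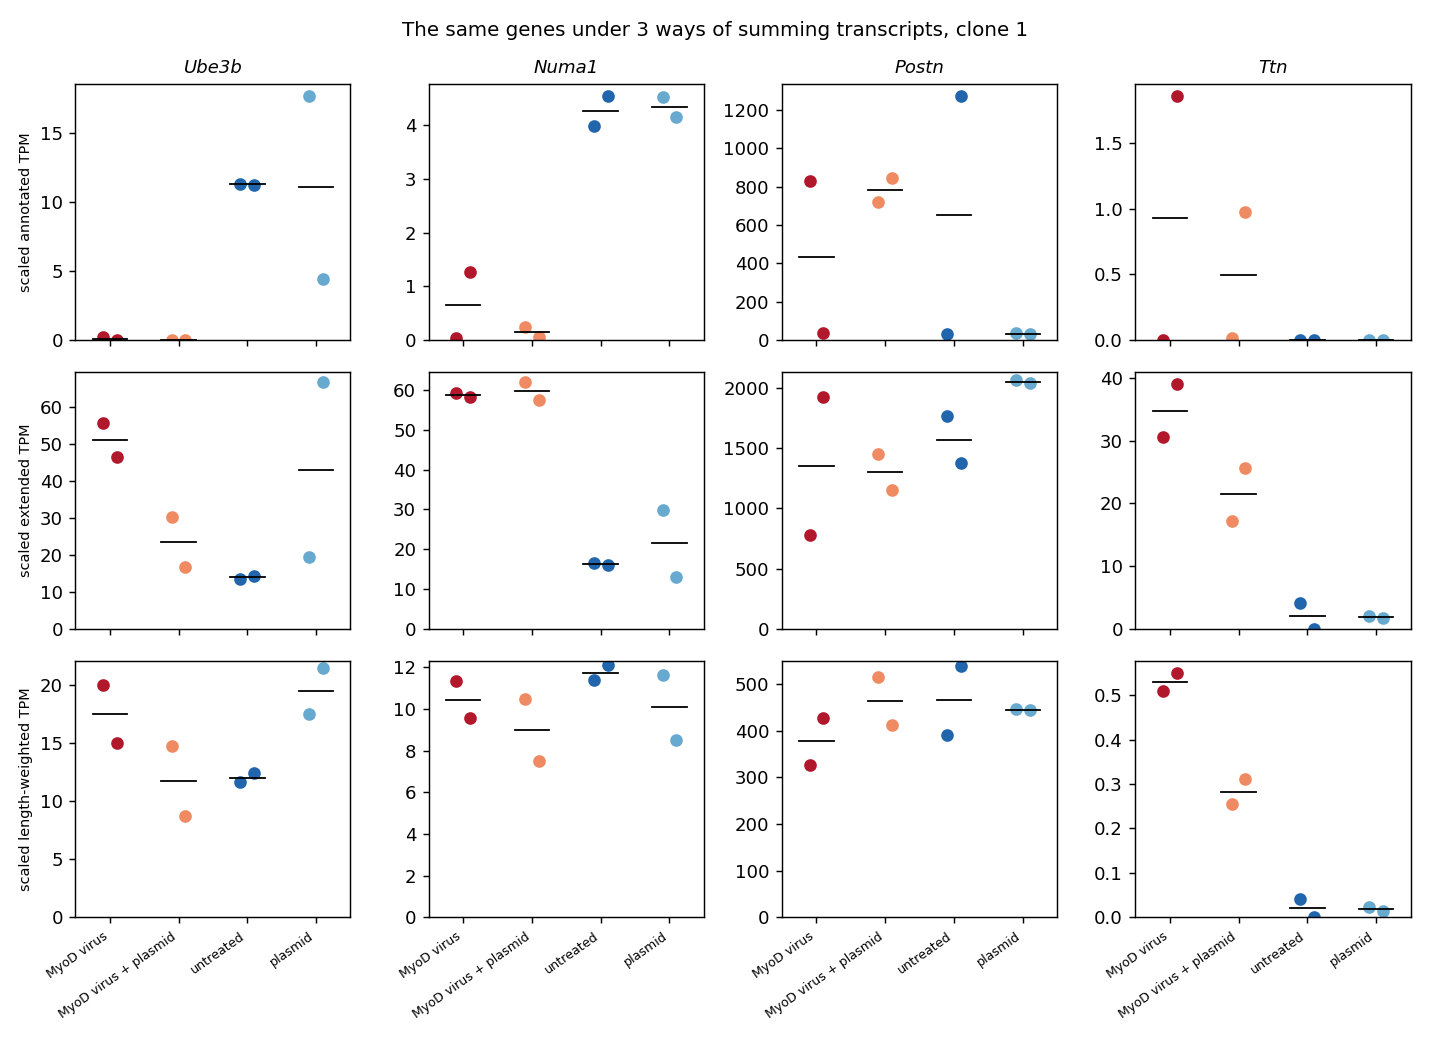
Ube3b, Numa1, Postn and Ttn in the 8 clone 1 libraries by annotated, extended and length-weighted TPM, scaled; points are libraries, black lines are group means, and virus groups stand left of the groups without virus. Ube3b and Numa1 separate the groups with annotated TPM and overlap by length, and Ttn is higher with virus by extended and by length-weighted TPM.

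Fibroblast markers were present in all libraries. Of 40 fibroblast and matrix genes, 33 were tested by length and 0 called, beside 0.116% of all genes tested. The virus libraries lay above or below the others for 0 of the 40. Over all genes with a value, 1.16% lay above and 0.918% below, so these counts do not set the list apart. Their summed length-weighted TPM was 1400 to 1840 with virus and 1630 to 1890 without. By length 14 of the 40 changed upward and 26 downward, with a median log2 change of −0.05. Col1a1, the main fibroblast collagen, had 30.4, 27.7, 30.5 and 26.3 TPM with virus, against 25.97, 27.6, 24.8 and 21.8 without, and the groups overlapped. Pdgfra, a fibroblast receptor, had 6.93, 7.02, 9.09 and 5.19 TPM with virus, against 8.28, 14.3, 11.03 and 10.6 without. Its groups overlapped too, and its log2 change of −0.58 was not called (limma adjusted p = 0.565). Summed length-weighted TPM was 160 to 210.0 with virus and 156 to 172 without for 14 cartilage and bone genes, and 2.2 to 10.6 with virus and 7.62 to 12.7 without for 12 adipocyte genes. It reached 4.18 with virus and 2.63 without for 8 macrophage markers, 1.51 and 1.24 for 10 neuron markers, 0.638 and 0.168 for 8 epithelium markers, and 3.32 and 2.39 for 12 heart markers. At 0 in all 8 libraries were 5 of the macrophage, 6 of the neuron, 5 of the epithelium and 7 of the heart markers.

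Genes of the cell cycle and of its exit held 0 calls by any of the 3 values. The annotated, extended and length-weighted shares called over all genes tested were 0.0933%, 0.0699% and 0.116%. By length the virus libraries lay above the others for 1 of 37 cell cycle genes and below for 1. For 15 exit genes with a value these counts were 0 and 2. Over all genes with a value, 1.16% lay above and 0.918% below. Cdkn1a, the inhibitor p21 that MyoD is known to raise in differentiating muscle, had an annotated level of 102, 116, 142 and 130.1 TPM with virus, against 135, 122, 113 and 118 without. The groups overlapped (limma adjusted p = 0.999). Mki67, a proliferation marker, had a length-weighted level of 1.65, 1.44, 2.33 and 1.28 TPM with virus, against 1.23, 0.487, 1.04 and 0.326 without, without overlap and without a call (limma adjusted p = 0.634). Its groups overlapped by extended TPM, and it was at 0 in all 8 libraries by annotated TPM. Cenpe, a kinetochore motor, lay below in all virus libraries by length, at 0.01, 0.0255, 0.0286 and 0.00649 TPM with virus, against 0.152, 0.138, 0.303 and 0.0299 without, and did not pass the filter. Id1, an inhibitor that sequesters the partners of MyoD, had 2.84, 2.17, 2.38 and 3.55 TPM with virus, against 2.14, 1.85, 1.63 and 2.12 without, without overlap by length but with overlap by annotated TPM, and was not called (limma adjusted p = 0.735). Id3, its relative, had 9.21, 6.16, 5.31 and 8.24 TPM with virus, against 11.6, 5.96, 7.98 and 7.46 without, with overlap.

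The oxidative stress list had 19 genes, 14 tested by length and 0 called, beside 0.116% of all genes tested. Its median log2 change was −0.12. The virus libraries lay below the others for 3 of the 19, Nqo1, G6pdx and Gstm1, beside 0.918% of all genes, and by extended TPM Nqo1 overlapped. Nqo1, a quinone reductase, had 14.9, 28.7, 21.6 and 27.3 TPM with virus, against 46.1, 38.95, 34.2 and 32.01 without. Gstm1, a glutathione transferase, had 55.98, 68.8, 74.02 and 69.2 TPM with virus, against 102, 80.7, 81.6 and 81.5 without. G6pdx, the entry enzyme of the pentose phosphate pathway, had 18.99, 23.8, 18 and 21.5 TPM with virus, against 29.3, 31.2, 26.4 and 25.1 without. None of the 3 passed the test (limma adjusted p = 0.486, 0.598 and 0.486). Of 37 mitochondrially encoded genes, 14 had all virus libraries above the others by length, beside 1.16% of all genes. Of these 14, mt-Co3 encodes a protein and the others are tRNA genes. The 37 had a median log2 change of 0.85, against 0.013 over all genes, and 0 were called. Their summed TPM overlapped, at 10800 to 16000 with virus and 11300 to 12900 without. The mitochondrial share given above moved with them, and its part was not tested. The lists for interferon, immediate early genes, endoplasmic reticulum stress, p53 targets, cholesterol synthesis, smooth muscle, Notch and bHLH inhibitors, chromatin coactivators, splicing, adipocytes, and cartilage and bone held 0 calls by any of the 3 values. Over all genes tested 0.0933% were called with annotated, 0.0699% with extended and 0.116% with length-weighted TPM.

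The response was next compared between plasmid arms. The difference between the response with and without plasmid gave 0 calls among 4289 genes (0%) by limma, with 261 at an unadjusted p under 0.05, and 0 calls by extended and by length-weighted TPM. Without MyoD virus replicate 2 there were 10 calls. For Igf2 the difference was 0.39 ± 0.55 (SE, limma adjusted p = 0.939) on the log2 scale, for H19 −0.37 ± 0.57 (SE, limma adjusted p = 0.942) and for Lcn2 0.59 ± 0.31 (SE, limma adjusted p = 0.815).

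Clone 1 was then set beside wild type, with values scaled over the 16 libraries of both lines. With annotated TPM 2 of 6874 genes were called (0.0291%), Smyd1 and Gm49394. With extended TPM 2 of 10914 were called (0.0183%) and by length 2 of 7443 (0.0269%), Igf2 and Gm49394 in both. Without any 1 of the 4 wild type virus libraries the annotated count was 0. Smyd1 and Gm49394 passed the filter through these 4 alone and could not be tested there, so this count says nothing about them. The annotated count was 6 without clone 1 MyoD virus replicate 1 and 5 without replicate 2. By length Igf2 had 24.1, 36.04, 30.6 and 40.4 TPM in clone 1 with virus and 1.53, 1.99, 1.37 and 0.924 without. In wild type it had 139, 142, 188 and 190.4 with virus and 1.08, 2.79, 0.596 and 0.591 without. The 4 virus libraries of clone 1 all lay below the 4 of wild type. The log2 response was 3.78 in clone 1 and 6.28 in wild type, a difference of −2.50 ± 0.36 (SE, limma adjusted p = 0.0188). With annotated TPM the difference was −2.48 and missed the threshold (limma adjusted p = 0.116).

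Gm49394, an annotated gene that overlaps Igf2 on the same strand at chr7:142650769-142669942, differed by −3.82 ± 0.39 (SE, limma adjusted p = 0.000923), and how reads were divided between the 2 genes is uncertain. It passed the filter through the 4 wild type virus libraries alone. Smyd1 was at 0 in all clone 1 libraries with annotated TPM and at 3.28, 2.79, 4.83 and 8.78 in wild type with virus, a difference of −2.46 ± 0.35 (SE, limma adjusted p = 0.023). It was at 0 in the other 4 wild type libraries and passed the filter through the wild type virus libraries alone. By length Smyd1 had 0, 0.3404, 1.92 and 1.56 in clone 1 with virus and 2.42, 2.096, 3.47 and 6.32 in wild type with virus, and the difference of −1.21 was not called (limma adjusted p = 0.578). Actc1 had 0.362, 0.9397, 1.39 and 1.44 in clone 1 with virus and 5.46, 6.22, 4.17 and 3.505 in wild type with virus, without overlap. Its difference of −1.54 was not called (limma adjusted p = 0.146). H19 had 12.2, 15.5, 9.27 and 12.9 in clone 1 with virus and 18.1, 16.2, 17.5 and 14.8 in wild type with virus, a difference of responses of −0.32 ± 0.22 (SE, limma adjusted p = 0.886). For Myod1 the responses differed by −0.47 ± 0.21 (SE, limma adjusted p = 0.73). Ribosomal TPM was high in both lines, at 36.8% to 70.0% in clone 1 and 55.6% to 69.2% in wild type.

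**Figure D5:**
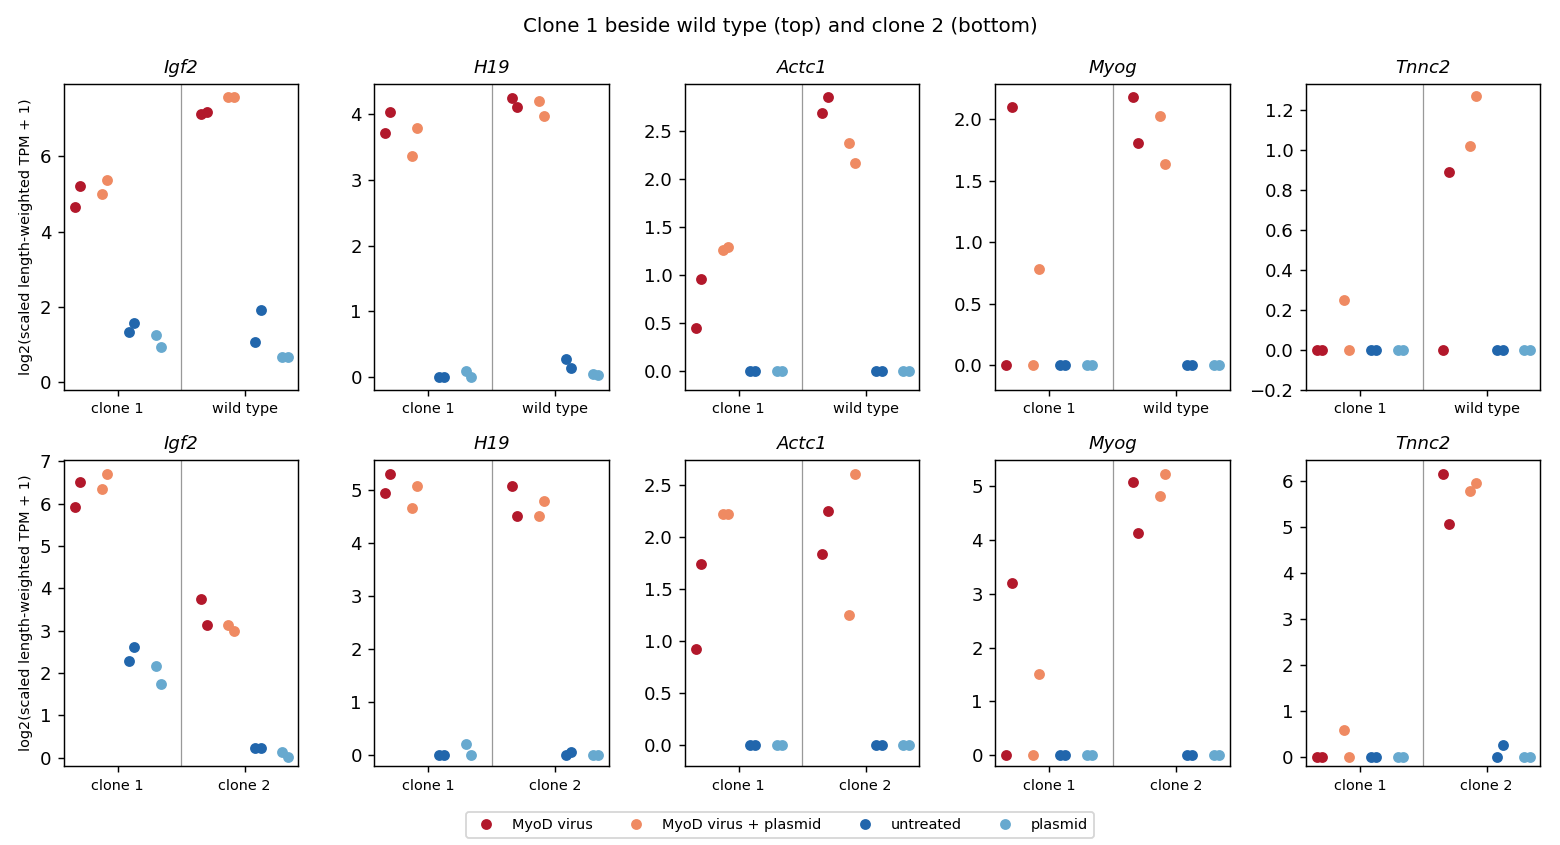
Igf2, H19, Actc1, Myog and Tnnc2 as log2 of scaled length-weighted TPM plus 1, clone 1 left of wild type in the top row and left of clone 2 in the bottom row; points are libraries, and virus stands left of no virus. Igf2 with virus is lower in clone 1 than in wild type, and Tnnc2 with virus is near 0 in clone 1 and high in clone 2.

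The comparison with clone 2, the other knockout clone, uses the same clone 1 libraries. With annotated TPM 308 of 11261 genes were called (2.74%), 153 with the higher and 155 with the lower response in clone 1. The split depended on scaling: it was 1053 to 112 with TPM as deposited, where the median over all genes shifted to 0.40 against −0.08, and 154 to 82 with quantile normalization. With extended TPM 421 of 14237 were called (2.96%), and by length 590 of 12505 (4.72%). Library makeup moved with the line: ribosomal TPM took 36.8% to 70.0% in clone 1 and 2.68% to 7.90% in clone 2, and 4273 to 5759 genes reached 1 TPM in clone 1 against 10420 to 13250 in clone 2. Clone and library makeup cannot be told apart here. The annotated count was 125 and 107 without clone 2 untreated replicate 1 or 2, 121 and 116 without its plasmid replicate 1 or 2, 171 without its MyoD virus replicate 1 and 200 without its MyoD virus with plasmid replicate 2.

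Tnnc2, a troponin of fast fibres, had a length-weighted level of 0, 0, 0.499 and 0 TPM in clone 1 with virus and 69.5, 32.2, 53.8 and 60.4 in clone 2 with virus, a difference of responses of −5.52 ± 0.36 (SE, limma adjusted p = 6.40e-07). Mylpf, a fast myosin light chain, had 1.88, 0.977, 0.735 and 0.827 in clone 1 with virus and 66.4, 34.9, 53.2 and 47.4 in clone 2 with virus, a difference of −4.89 ± 0.38 (SE, limma adjusted p = 4.73e-06). Myog had 0, 8.24, 0 and 1.84 in clone 1 with virus and 32.9, 16.6, 27.1 and 36.4 in clone 2 with virus, a difference of −3.63 ± 0.76 (SE, limma adjusted p = 0.0129). These 3 muscle genes were lower in every virus library of clone 1 than in any of clone 2, and each passed the filter only with the clone 2 virus libraries. Not every contractile gene did so. Myom2 had 1.63, 4.28, 2.54 and 2.798 in clone 1 with virus and 0.537, 0.0376, 0.354 and 0.983 in clone 2 with virus, a difference of 1.52 ± 0.34 (SE, limma adjusted p = 0.0184), and it passed the filter through the clone 1 virus libraries alone. The difference for Actc1 was −0.21 ± 0.43 (SE, limma adjusted p = 0.836). On the scaling over clone 1 and wild type, Tnnc2 had 0, 0, 0.189 and 0 TPM in clone 1 with virus and 0, 0.855, 1.03 and 1.41 in wild type with virus, with overlap. Myod1 had 5237, 7133, 8227 and 9711 in clone 1 with virus and 401, 352, 386 and 369.7 in clone 2 with virus, on the scaling over clone 1 and clone 2. On that scaling its level was higher in clone 1. How much of this gap comes from scaling lines of unlike library makeup was not tested.

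H19 had 29.99, 38.7, 24.5 and 32.9 TPM by length in clone 1 with virus and 32.8, 21.9, 21.9 and 26.99 in clone 2 with virus, and its responses differed by 0.24 ± 0.27 (SE, limma adjusted p = 0.691). Igf2 had 59.6, 90.1, 81.04 and 103 in clone 1 with virus and 3.87, 5.096, 3.47 and 2.36 without. In clone 2 it had 12.3, 7.83, 7.79 and 7.01 with virus and 0.175, 0.171, 0.0933 and 0.0106 without. The difference of responses was 1.07 ± 0.31 (SE, limma adjusted p = 0.0575) by length, and 1.69 ± 0.41 (SE, limma adjusted p = 0.0446) with annotated TPM, where it was called. With extended TPM it was −0.01 ± 0.38 (SE, limma adjusted p = 0.995). Car3 differed by −0.02 ± 0.36 (SE, limma adjusted p = 0.976). Nr4a1, an immediate early gene, had 168, 190, 190.1 and 189.8 in clone 1 with virus and 190.1, 180.3, 191 and 153 without, with overlap. In clone 2 it had 3.12, 6.04, 4.88 and 3.48 with virus and 50.9, 70.8, 73.9 and 76.8 without, and the difference was 3.75 ± 0.25 (SE, limma adjusted p = 6.40e-07).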

How the data were processed

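RNA-seq was made from 24 libraries, and the 8 of clone 1 were the subject. Per the labels' protocols the cDNA came from a SMART-Seq low-input kit, a type that does not mark strand, and the reads were paired, 100 nt long. Tools named by the submitters' processing notes are StringTie 1.3.3, HISAT2 2.1.0, Trimmomatic 0.36, bcl2fastq 2.19 and SAMtools 1.3, with mm10; per the file headers it was StringTie 2.1.2 guided by GENCODE M21, with unannotated transcripts assembled. Each deposited file lists 1 library's transcripts with other values side by side: coverage, FPKM and TPM. TPM was summed per gene in 3 ways (Python 3.11.15, bedtools 2.31.1), and libraries were scaled by the median of ratios. The filter kept genes reaching 1 TPM in 4 libraries. limma 3.58.1 in R 4.3.3, with the mean-variance trend and 5 residual degrees of freedom, was run on log2(TPM + 1), a scale that understates changes of low genes. Benjamini-Hochberg adjustment covered all genes tested. The fit was tested on simulated data. A listed 0 can be a failed assembly, and overlapping or antisense genes cannot be separated without strand.

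Genes named were a list of 24 followed genes, calls whose groups did not overlap (up to 12 per direction, mean of at least 5 TPM in the higher group), up to 4 called members per list, and up to 6 called genes per difference of responses. Other named genes were chosen after their values were seen, as was length-weighted TPM. Members and all 27 lists were chosen with earlier results of these data known.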

Additional observations from a re-analysis of the deposited data

Results flagged for a closer look

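In 3 groups of 4 libraries, 1 library lay far from the rest past Dixon's 95% critical value for the gap between it and its nearest neighbour divided by the group's range. The ratio was 0.841 for the mitochondrial share with virus in clone 1, where MyoD virus replicate 1 was the high library. It was 0.889 for length-weighted Tpm2 without virus, where plasmid replicate 1 was low, and 0.955 for length-weighted Gstm1 without virus, where untreated replicate 1 was high. There were 34 groups examined, and chance passes this value in about 5% of groups.

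The response of clone 1 differed from that of wild type in the test of the difference itself. With annotated TPM the log2 difference was −2.46 for Smyd1 and −3.82 for Gm49394. With annotated TPM both genes passed the filter through the wild type virus libraries alone. By length the difference was −2.50 for Igf2 and −3.62 for Gm49394. For Smyd1 the length-weighted difference of −1.21 was not called (limma adjusted p = 0.578).

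The response of clone 1 differed from that of clone 2 in the same kind of test. With annotated TPM the log2 difference was 6.59 for Col6a1, −5.75 for Tnnc2, −5.57 for Mylpf, −4.94 for Tnnc1, 4.93 for Nr4a1 and −4.81 for Ube3b. Tnnc2, Mylpf and Tnnc1 passed the filter only with the clone 2 virus libraries. With extended TPM the Tnnc1 difference was −2.34 and was not called (limma adjusted p = 0.0553). The annotated Ube3b response was −4.94 in clone 1 and −0.14 in clone 2. In the fit of clone 1 alone, its change by length was −0.11, with overlap. For Col6a1, clone 2 had 62.7 TPM in MyoD virus replicate 1 and under 0.01 TPM in the other 3 virus libraries. By length the log2 difference was −5.52 for Tnnc2, −4.89 for Mylpf, −3.83 for Pitpna, 3.75 for Nr4a1, −3.63 for Myog and 3.61 for Fos.

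The unnamed transcript at the LncMyoD locus is outside the gene values. The lowest of the 4 clone 1 plasmid libraries had 16.8 TPM as deposited, and the transcript was not listed in the clone 1 libraries without plasmid.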

How the results depend on the processing

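Myod1 and Igf2 kept their direction and their call under each of 25 alternatives. H19 did so under 18 of the 19 that could test it and was not called with a filter of 5 TPM (limma adjusted p = 0.0678). Ube3b lost its call under 8 of 18 and reversed to 0.57 with extended TPM. Numa1 reversed to 1.67 and Postn to −0.51 with extended TPM. Postn was also −0.12 by length and −0.28 without the plasmid arm, and 4.48 in the plasmid arm alone, where it was called. Uncalled Cdkn1a took positive values of 0.08 unscaled, 0.03 with all 24 libraries, 0.02 with array weights, 0.03 by length and 0.21 in the plasmid arm, and Col1a1 was −0.02 in the arm without plasmid. The cause of these changes was not tested.

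For the virus response, fitting all 24 libraries gave 131 calls, 60 higher and 71 lower, and a filter of 5 TPM gave 2. Calls higher numbered 5 by length and 6 with extended TPM. Calls lower numbered 3 without the trend and 0 with array weights, the filter of 5 TPM, the plasmid arm alone, no filter, a pseudocount of 5, or extended TPM. The plasmid difference gave 94 calls with all 24 libraries. The difference from wild type gave 4 calls with unscaled FPKM or TPM, 30 with all 24 libraries, 1 with array weights or a pseudocount of 0.1, and 0 with the filter of 5 TPM. The difference from clone 2 gave 1219 with unscaled FPKM, 1165 with unscaled TPM, 198 with a filter on 2 libraries, 590 by length, 132 with no filter and 204 with a pseudocount of 0.1.

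Leaving out 1 library at a time gave 2 to 3 calls for the virus response, 2 to 3 higher and 0 to 0 lower, 2 to 5 with extended TPM and 2 to 9 by length. It gave 0 to 10 for the plasmid difference, 0 to 6 against wild type and 107 to 433 against clone 2, Cdkn1a changes of −0.09 to 0.07, and a difference in the share without a reference gene of −3.33 to 3.28 percentage points. The count of 0 against wild type fell where the filter left Smyd1 and Gm49394 untested. Same-numbered replicates did not deviate together, with correlations of −0.043 to 0.033. Scatter of single libraries can hide a pairing, so this check cannot exclude it, and the labels do not state any. With the replicate block there were 4 calls for the virus response, 1 against wild type and 208 against clone 2. Extended TPM gave 3 calls with a pseudocount of 0.1, in place of 6; this alternative was chosen after seeing the data. The depth behind each low muscle gene is unknown, which limits those values.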
